A study of Mus musculus with 2 samples.

Results

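Expression of 36 endothelial and angiogenesis genes was compared between csMed1-/- and Med1fl/fl mouse heart. The genes were taken by symbol from a fixed list, and all 36 were found among the 22882 symbols of both files, each on 1 row. They comprised 19 pan-endothelial genes, 5 arterial and Notch genes, 4 lymphatic and venous genes, 6 growth factors and the apelin ligand and receptor. Control hearts came from mice whose Med1 alleles were both floxed (Med1fl/fl), and csMed1-/- hearts from mice with the same floxed alleles and a Cre transgene under the α-myosin heavy chain promoter. This promoter directs the deletion to cardiomyocytes, so vascular cells of the csMed1-/- heart were not its target. All mice were untreated, 23 days old, of C57BL6/J background and of mixed sex. RNA of 5 hearts was pooled for each genotype and sequenced as 1 library. There are therefore no replicates, no gene could be tested, and every difference given here is between these 2 libraries.

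Blood vessels are lined by endothelial cells, which in heart form a dense capillary bed around the cardiomyocytes. Vascular endothelial growth factors (VEGF), many of them made by the muscle cells, bind receptor tyrosine kinases on the endothelium and drive vessel growth and survival. Angiopoietins acting through the Tie receptors stabilise vessels, Notch signalling with its ligand Dll4 separates arterial and sprouting cells, and a distinct set of genes marks the lymphatic endothelium. Transcription factors of the ETS and SoxF families maintain the endothelial programme.

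Expression is given as FPKM, fragments scaled to transcript length and to the mapped fragments of the library, which can be compared between genes. Changes are csMed1-/- FPKM divided by Med1fl/fl FPKM. A gene was compared if neither library listed it at 0 and if its larger value reached 1 FPKM. This filter kept 10489 genes, among them 34 of the 36 studied here. Genes were counted as lower or higher beyond 2-fold. The log2 ratios of all 10489 genes had a median of -0.07, and their quartiles were -0.72 and 0.55. More than 2-fold lower in csMed1-/- heart were 18.0% of them and more than 2-fold higher 13.6%, together 31.5%. No counts of reads were analysed, so depth is unknown. Spacing of the lowest FPKM gave the csMed1-/- library a relative depth of 1.39, if mapped fragments were the sole scaling. Med1 itself had 3.38 FPKM in Med1fl/fl and 0.412 FPKM in csMed1-/- heart. A listed 0 may be a failed estimate, since the cardiac actin gene Actc1 was listed at 0 in control and at 9189 FPKM in csMed1-/- heart, and the myoglobin gene Mb at 0 and 1040 FPKM. No gene of the studied set was listed at 0.

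Of the 34 genes, 7 were more than 2-fold lower in csMed1-/- heart (Aplnr, Nrp2, Tek, Erg, Kdr, Vegfb and Emcn) and 6 were more than 2-fold higher (Cldn5, Mcam, Vwf, Plvap, Sox17 and Pgf). These are 20.6% and 17.6% of the 34 genes, beside 18.0% and 13.6% of all genes. The other 21 lay within 2-fold. The shares past 2-fold are near the background and say nothing particular about the set, so the genes are described singly. Past 4-fold were 2 genes in each direction, Aplnr and Nrp2 lower and Cldn5 and Mcam higher, beside 5.14% and 4.32% of all genes (9.46% together). The median log2 ratio of the 34 genes was -0.23.

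**Figure D1:**
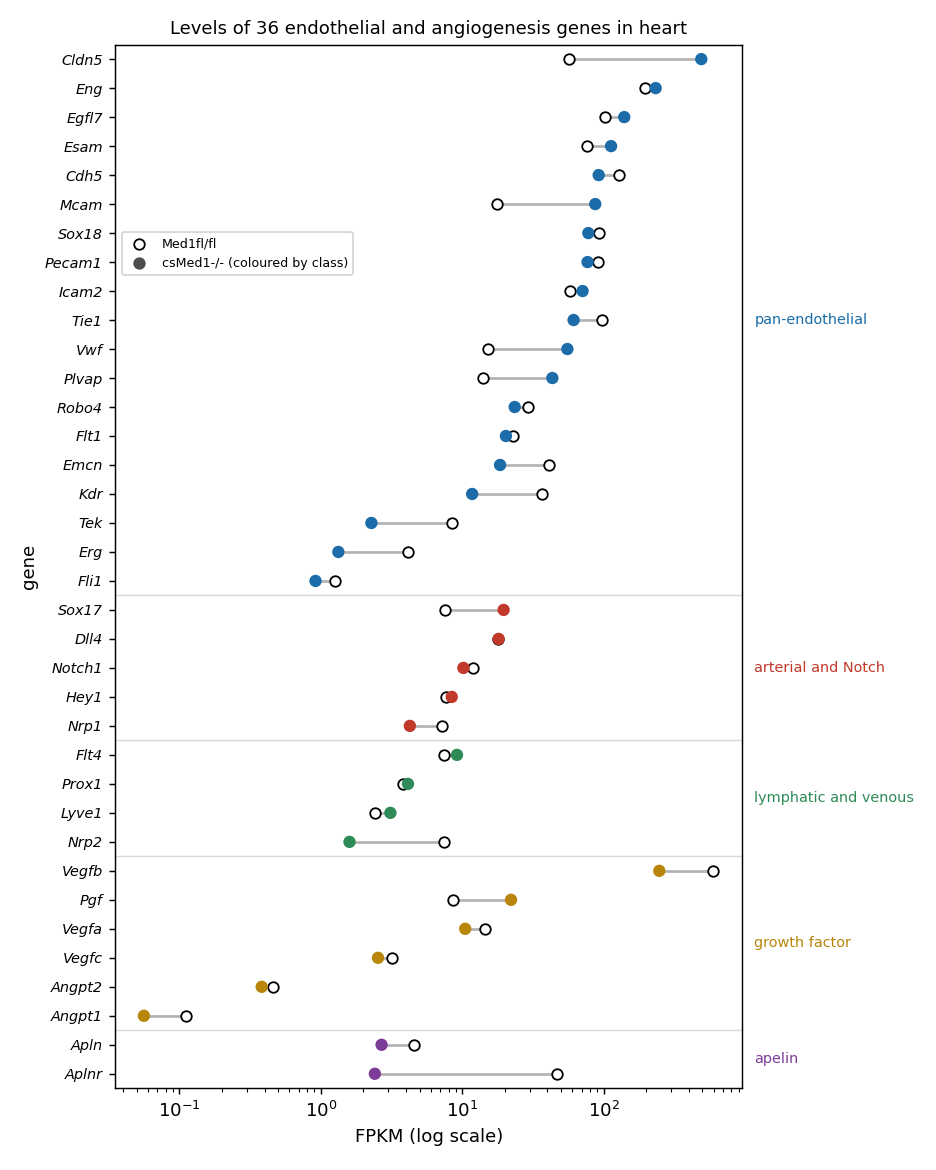
FPKM (log axis) of all 36 genes in the Med1fl/fl library (open circles) and the csMed1-/- library (filled circles, coloured by class), 1 pooled library of 5 hearts each. The longest lines belong to Aplnr, from 46.6 down to 2.41 FPKM, and to Cldn5, from 56.6 up to 490 FPKM. Among the 19 pan-endothelial genes 8 lie past 2-fold, and 11, such as Pecam1 (91.8 and 76.9 FPKM), within it.

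The promoters of genes at both ends of the range are printed so that their base composition and motif words can be compared. RefSeq windows (GRCm38.p6) from 250 bases before to 50 bases after the transcription start were given for 22 of the 36 genes, in 29 windows, and Aplnr was not among them. Shown 5′ to 3′ on the strand of the gene, here the plus strand in each case, are, of the genes with a window, those of the 2 highest ratios (Cldn5, chr16:18776597-18776896; Mcam, chr9:44134408-44134707), of the 2 lowest (Nrp2, chr1:62703067-62703366; Tek, chr4:94739039-94739338) and of Emcn (chr3:137340828-137341127), which held the most ETS matches of the genes past 2-fold. Capitals mark matches on either strand to one of the following words. For ETS factors the word was AGGAAG, with the variant form CGGAAG counted too. For RBPJ, the effector of Notch, it was TGGGAA, for the hypoxia response ACGTG, and for GATA factors AGATAA. The nuclear receptor repeat DR1 was searched as well, and overlaps between words were allowed.
Cldn5 promoter: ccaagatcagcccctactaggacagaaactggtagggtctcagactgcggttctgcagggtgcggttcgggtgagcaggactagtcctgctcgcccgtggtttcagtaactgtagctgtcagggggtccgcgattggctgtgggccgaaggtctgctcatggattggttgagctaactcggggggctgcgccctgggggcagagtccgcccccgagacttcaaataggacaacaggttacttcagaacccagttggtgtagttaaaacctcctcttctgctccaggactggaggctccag
Mcam promoter: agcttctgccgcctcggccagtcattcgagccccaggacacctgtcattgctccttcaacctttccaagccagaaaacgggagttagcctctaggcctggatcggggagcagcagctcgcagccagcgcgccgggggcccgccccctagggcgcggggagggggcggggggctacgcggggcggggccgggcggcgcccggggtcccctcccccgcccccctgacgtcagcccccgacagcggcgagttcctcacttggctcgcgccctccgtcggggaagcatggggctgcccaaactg
Nrp2 promoter: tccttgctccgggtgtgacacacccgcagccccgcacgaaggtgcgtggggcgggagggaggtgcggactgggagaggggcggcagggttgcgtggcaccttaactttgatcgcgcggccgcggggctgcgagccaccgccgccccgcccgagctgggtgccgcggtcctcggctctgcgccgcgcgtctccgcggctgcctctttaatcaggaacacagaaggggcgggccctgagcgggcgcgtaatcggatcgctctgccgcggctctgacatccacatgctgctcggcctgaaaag
Tek promoter: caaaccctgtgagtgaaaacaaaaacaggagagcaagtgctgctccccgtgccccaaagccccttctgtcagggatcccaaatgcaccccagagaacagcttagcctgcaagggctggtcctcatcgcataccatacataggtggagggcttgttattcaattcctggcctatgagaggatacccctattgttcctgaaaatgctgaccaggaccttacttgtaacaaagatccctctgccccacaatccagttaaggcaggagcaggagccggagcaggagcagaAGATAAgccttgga
Emcn promoter: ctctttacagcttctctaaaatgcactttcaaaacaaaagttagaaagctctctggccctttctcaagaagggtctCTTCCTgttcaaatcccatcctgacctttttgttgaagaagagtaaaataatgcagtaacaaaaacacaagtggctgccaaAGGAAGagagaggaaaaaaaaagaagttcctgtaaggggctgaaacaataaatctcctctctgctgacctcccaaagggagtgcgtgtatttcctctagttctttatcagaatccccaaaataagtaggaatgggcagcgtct
The Cldn5, Mcam and Nrp2 windows hold none of these words, the Tek window holds 1 GATA word, and the Emcn window holds 1 ETS word on each strand. The windows also differ in base composition, from 41.0% GC in Emcn and 52.0% in Tek to 58.3% in Cldn5, 70.7% in Nrp2 and 72.7% in Mcam. An ETS word stood in a window of 9 of the 22 genes (40.9%) and of 49.8% of all 27025 genes in the table. Of the genes past 2-fold, 2 of 6 lower and 0 of 3 higher genes with a window held one. The hypoxia word stood in 1 of the 22 genes, Vegfa, and in 21.8% of all genes, and DR1 in 0 of the 22 and in 13 of all 27025 genes. A match is a description of the letters and not a site.

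Of the 19 pan-endothelial genes, all of which passed the filter, 4 were lower and 4 higher by more than 2-fold (21.1% each way, beside 18.0% and 13.6% of all genes), and 11 lay within 2-fold. Their median log2 ratio was -0.24, and -0.06 after the centring for GC content described with the base composition. The junction, adhesion and receptor genes within 2-fold are given first. Pecam1, which encodes the adhesion molecule CD31, had 91.8 FPKM in Med1fl/fl and 76.9 FPKM in csMed1-/- heart. Cdh5, the gene of the adherens junction protein VE-cadherin, had 128.6 and 92.2 FPKM. Both values were lower in csMed1-/- heart, by 1.19-fold and 1.39-fold. Eng, which encodes the TGF-β co-receptor endoglin, had 195.6 and 233 FPKM. Icam2, an adhesion molecule that binds leukocyte integrins, had 57.8 and 71.0 FPKM, and Esam, a junctional adhesion molecule, had 76.4 and 112.9 FPKM. These genes were higher in csMed1-/- heart, but by less than 2-fold, as was Egfl7, a secreted vessel-forming protein whose locus hosts miR-126, with 103.0 and 139.8 FPKM. The Egfl7 locus shares 6482 bases with the predicted gene Gm20532 on the same strand, and its reads may be split between them. Robo4, a receptor that helps keep vessels tight, had 29.1 and 23.5 FPKM. In whole-heart RNA, fewer cells of a type and less RNA per cell cannot be told apart.

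Cldn5 had the highest ratio of the 34 genes. It encodes claudin-5, the main tight junction strand protein of endothelium, and had 56.6 FPKM in Med1fl/fl and 490 FPKM in csMed1-/- heart (ratio 8.66). Of all genes compared, 98.5% had a lower ratio. Cldn5 was the 10th most abundant of the 36 genes in control and the 1st in csMed1-/- heart, and relative to Cdh5 its level went from 0.440 to 5.32 times. In the GENCODE M21 annotation of GRCm38 (mm10) it lies on chromosome 16 from 18776847 to 18778262, with no other protein-coding gene overlapping it. The summed FPKM of the 19 pan-endothelial genes was 1090 in control and 1620 in csMed1-/- heart. Cldn5 made up 434 of this difference of 530 FPKM, and without it the sums were 1033 and 1130 FPKM.

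A further 3 pan-endothelial genes were more than 2-fold higher. Mcam, which encodes the adhesion molecule CD146 of endothelial cells and pericytes, had 17.5 FPKM in Med1fl/fl and 87.2 FPKM in csMed1-/- heart (ratio 4.98). Vwf, the gene of von Willebrand factor, which tethers platelets, had 15.3 and 55.4 FPKM (ratio 3.61). Plvap, which encodes the diaphragm protein of fenestrae and caveolae, had 14.0 and 43.4 FPKM (ratio 3.09). Plvap shares 1819 bases of its locus with Gtpbp3 on the opposite strand. The libraries were directional, but whether strand was used in counting is not stated, and Gtpbp3 itself had 9.97 and 8.86 FPKM.

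The receptor tyrosine kinases of endothelium split. Kdr, which encodes VEGFR2, the main signalling receptor of VEGF-A, had 36.5 FPKM in Med1fl/fl and 11.8 FPKM in csMed1-/- heart, 3.11-fold lower. Flt1, the gene of VEGFR1, which binds VEGF-A, VEGF-B and placental growth factor, had 22.9 and 20.4 FPKM. The order of the pair was therefore reversed, with Kdr at 1.60 times Flt1 in control and at 0.577 times Flt1 in csMed1-/- heart. Tek, the gene of the angiopoietin receptor Tie2, had 8.50 and 2.28 FPKM, 3.73-fold lower. Tie1, an orphan partner of Tie2, had 97.8 and 61.3 FPKM, within 2-fold, and the Tie1 to Tek ratio went from 11.5 to 26.9. Emcn, which encodes the capillary and venous sialomucin endomucin, had 41.1 and 18.5 FPKM, 2.22-fold lower, and was within 2-fold after the centring for GC content described with the base composition.

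The neuropilins are co-receptors for VEGF and class 3 semaphorins. Nrp2, the form of veins and lymphatic vessels, had 7.48 FPKM in Med1fl/fl and 1.60 FPKM in csMed1-/- heart, 4.69-fold lower. Nrp1, the arterial form, had 7.25 and 4.26 FPKM. The 2 genes were at nearly equal levels in control, with an Nrp1 to Nrp2 ratio of 0.969, and the ratio was 2.67 in csMed1-/- heart.

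Aplnr showed the largest change of the set. It encodes the G protein-coupled receptor of apelin, a peptide that supports cardiac contractility and vessel growth, and it had 46.6 FPKM in Med1fl/fl and 2.41 FPKM in csMed1-/- heart. This was 19.3-fold lower, and 0.601% of all genes compared had a lower ratio. Aplnr lies on chromosome 2 from 85136225 to 85139923, and no other protein-coding gene overlaps it. Its ligand gene Apln had 4.60 and 2.69 FPKM, 1.71-fold lower, so the receptor transcript was 10.1 times the ligand transcript in control and 0.896 times in csMed1-/- heart.

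Endothelial transcription factors did not move together. Among SoxF factors, Sox17, which is needed for arterial identity, had 7.59 FPKM in Med1fl/fl and 19.6 FPKM in csMed1-/- heart (ratio 2.58), while Sox18 had 92.1 and 77.9 FPKM. Sox7, the remaining SoxF gene and not one of the 36, had 14.9 and 3.66 FPKM, 4.08-fold lower. Among ETS factors, Erg, which sustains junction and identity genes, had 4.17 and 1.33 FPKM, 3.13-fold lower, and its relative Fli1 had 1.26 and 0.918 FPKM. Ets1, also outside the set, had 4.67 and 1.15 FPKM (named after its values were seen). Erg and Fli1 were low in both libraries, and a pseudocount of 1 FPKM moved the log2 ratio of Erg from -1.65 to -1.15.

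Arterial and Notch genes other than Sox17 differed by less than 2-fold. Dll4, the endothelial Notch ligand, had 17.8 FPKM in Med1fl/fl and 18.1 FPKM in csMed1-/- heart. Its receptor gene Notch1 had 11.9 and 10.2 FPKM. Hey1, a transcriptional target of Notch, had 7.67 and 8.43 FPKM. The ligand, receptor and target thus had ratios between 0.855 and 1.10. The sign of so small a difference changed for Dll4 with 1 of the scalings and with the centring for GC content. For Notch1 it changed only with centring on the pan-endothelial median. Of 17 other arterial and Notch pathway genes, 2 were lower and 2 higher by more than 2-fold (11.8% each, beside 18.0% and 13.6% of all genes). The lower genes were Dll1 (2.01 and 0.727 FPKM) and Hey2 (1.06 and 0.409 FPKM), which passed the filter only through Med1fl/fl heart. Unc5b, a netrin receptor of arteries and tip cells, had 21.6 and 76.5 FPKM (ratio 3.54), and Notch4, an endothelial Notch receptor, had 15.9 and 32.4 FPKM (ratio 2.04). Gja4, which encodes the arterial gap junction protein connexin 37, had 25.2 and 47.8 FPKM, and the Notch target Hes1 had 19.1 and 10.3 FPKM, both within 2-fold.

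The lymphatic and venous genes other than Nrp2 also lay within 2-fold. Flt4, the gene of VEGFR3, the receptor of VEGF-C, had 7.48 FPKM in Med1fl/fl and 9.18 FPKM in csMed1-/- heart. Lyve1, a hyaluronan receptor of lymphatic endothelium that tissue macrophages also carry, had 2.44 and 3.11 FPKM. Prox1, the lymphatic master regulator, which cardiomyocytes express as well, had 3.82 and 4.13 FPKM. All 3 were slightly higher in csMed1-/- heart, and Nrp2 stood apart from them. Vegfc, the lymphatic growth factor, had 3.20 and 2.54 FPKM. Of 7 other venous and lymphatic genes that passed the filter, none (0) was more than 2-fold lower, beside 18.0% of all genes. Foxc2 (1.21 and 3.19 FPKM) was the 1 gene more than 2-fold higher (14.3%, beside 13.6% of all genes). The median log2 ratio of the 7 genes was 0.71, beside -0.07 of all genes. Reln (0.661 and 1.09 FPKM) and Figf (0.964 and 1.92 FPKM) passed only through csMed1-/- heart, so this median rests partly on the filter. Ephb4, the venous ephrin receptor, had 68.1 and 67.2 FPKM, Itga9, an integrin of lymphatic valves, had 11.4 and 6.57 FPKM, and Pdpn, the gene of podoplanin, had 3.18 and 5.19 FPKM.

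The growth factors differed most in Vegfb and Pgf. Vegfb, the VEGFR1 ligand that is abundant in heart muscle, was the highest of the 36 genes in control, with 598 FPKM, and had 247 FPKM in csMed1-/- heart, 2.41-fold lower. Pgf, which encodes placental growth factor, another VEGFR1 ligand, had 8.63 and 22.1 FPKM (ratio 2.57). Vegfa, the principal angiogenic factor, had 14.6 and 10.5 FPKM, within 2-fold. Pgf was thus at 0.591 times Vegfa in control and at 2.11 times in csMed1-/- heart, and Vegfb at 40.9 times Vegfa in control and 23.6 times in csMed1-/- heart. Angpt1, the agonist of Tie2, had 0.112 and 0.0561 FPKM, and Angpt2, its context-dependent antagonist, 0.462 and 0.382 FPKM. These 2 genes did not reach 1 FPKM in either library and were not compared.

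**Figure D2:**
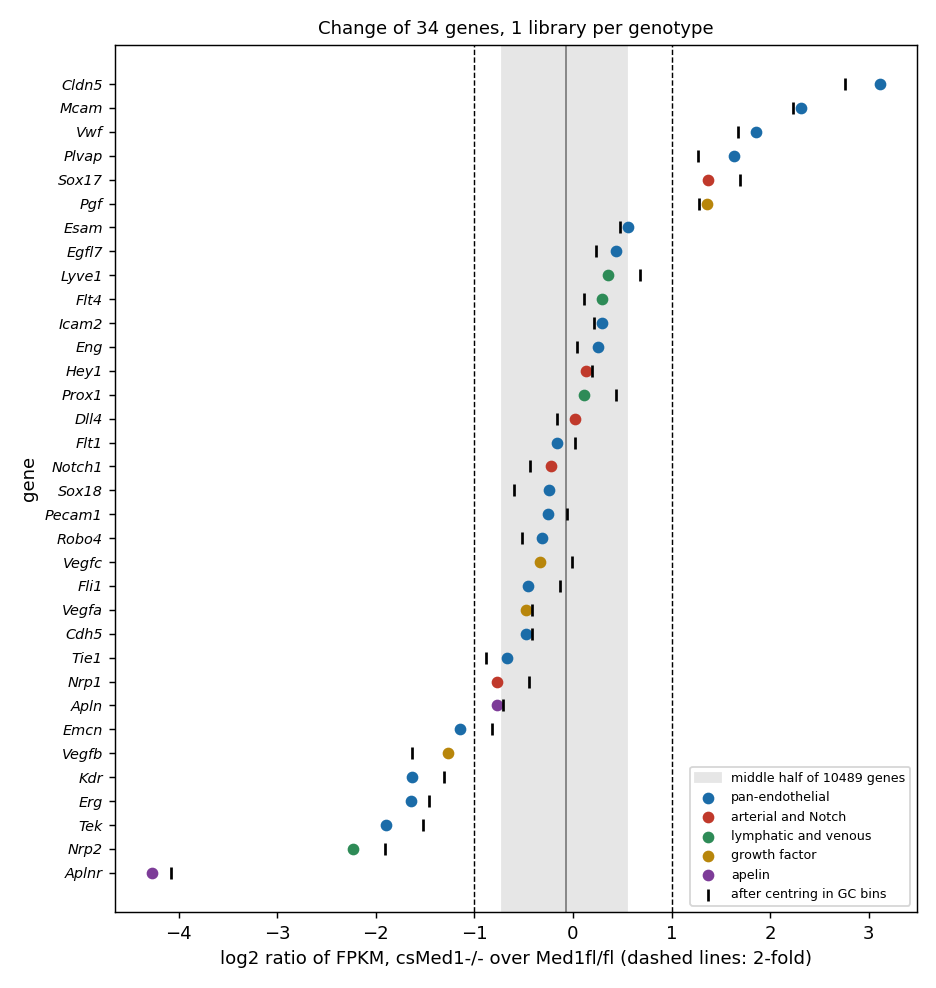
Log2 ratio of csMed1-/- to Med1fl/fl FPKM for the 34 genes that passed the filter, ordered by value and coloured by class. The shaded band spans the quartiles of 10489 genes (-0.72 to 0.55), the dashed lines mark 2-fold, and black ticks show the ratio after centring on genes of like transcript GC content, which moved Emcn from -1.15 to -0.82.

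The genes past 2-fold differed in base composition. Over 9470 genes with an annotated transcript, the log2 ratio was described in 10 bins of transcript GC content. The median was -0.13 in the lowest bin, -0.37 in the third (46.6% to 48.5% GC) and 0.36 in the highest. From the third bin upward it rose, so that GC-rich transcripts tended to be higher in the csMed1-/- library. The 7 lower genes had a median transcript GC content of 49.9%, and the 6 higher genes 55.8%. Each gene was then centred on its GC bin, a step added after the data were seen. Of the genes past 2-fold, 6 of the 7 lower and all 6 higher genes stayed there. Emcn, at -0.82, was the gene that did not. After centring, 6 of the 34 genes were lower and 6 higher by more than 2-fold (17.6% each), beside 15.9% and 13.6% of all genes. The log2 ratio of Cldn5 was 3.11 before and 2.76 after centring, that of Aplnr -4.27 and -4.08, and that of Vegfb, a GC-rich transcript that was lower, -1.27 and -1.63. Whether base composition contributed to the changes was not tested further.

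**Figure D3:**
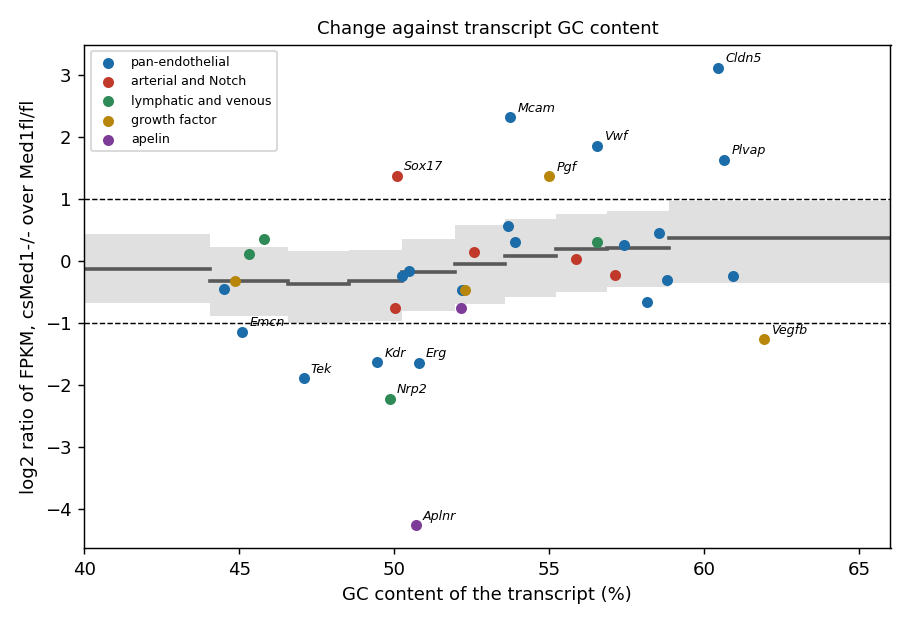
Log2 ratio of csMed1-/- to Med1fl/fl FPKM (vertical axis) against transcript GC content in percent (horizontal axis) for the 34 genes, coloured by class. Grey steps are the median and quartiles of all genes in each of 10 GC bins, and dashed lines mark 2-fold. Lower genes other than Vegfb lie between 45.1% and 50.8% GC and higher genes between 50.1% and 60.6%, with Vegfb (61.9%) lower and Sox17 (50.1%) higher against that trend.

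Beyond the 36 genes, a list of 35 other endothelial genes was described, 33 of which passed the filter. Of these 11 (33.3%) were lower and 2 (6.06%) were higher by more than 2-fold, beside 18.0% and 13.6% of all genes. The median log2 ratio was -0.27, beside -0.07. After centring in GC bins the median of the list was -0.05, with 10 genes lower and 2 higher by more than 2-fold. The abundant capillary genes Ly6c1 (499 and 527 FPKM) and Aqp1, a water channel (566 and 685 FPKM), differed little. Cd93, a C-type lectin of sprouting endothelium, had 16.6 FPKM in Med1fl/fl and 4.68 FPKM in csMed1-/- heart, and Lmo2, a transcriptional cofactor of blood and endothelial lineages, had 6.35 and 2.05 FPKM. Procr, the gene of the endothelial protein C receptor, went the other way, with 1.68 and 11.4 FPKM (ratio 6.82). Of 3 endocardial genes that passed, 2 (66.7%) were lower by more than 2-fold, beside the same 18.0% of all genes. Tmem100, a BMP target of endothelium, had 5.24 and 0.830 FPKM. It passed only through Med1fl/fl heart, so this share rests partly on the filter. Cytl1, a secreted factor, had 24.9 and 8.91 FPKM, and Nfatc1, a valve transcription factor, had 10.9 and 11.3 FPKM.

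Genes by which the capillary endothelium handles lipid and leukocytes were also mixed. Gpihbp1, which anchors lipoprotein lipase on capillaries, had 229 FPKM in Med1fl/fl and 693 FPKM in csMed1-/- heart (ratio 3.03). Tcf15, a transcription factor of fatty acid uptake in heart endothelium, had 23.6 and 6.50 FPKM, 3.63-fold lower. The transporter gene Cd36 (73.3 and 37.9 FPKM), the fatty acid-binding protein gene Fabp4 (182 and 143 FPKM) and Pparg (5.64 and 4.02 FPKM) stayed within 2-fold. Of 9 such genes 1 was lower and 1 higher by more than 2-fold (11.1% each, with the same 18.0% and 13.6% of all genes beside them). Of 8 leukocyte adhesion and junction genes, 1 (12.5%) was lower and 3 (37.5%) were higher. Of the 3 higher genes, Selp (0.212 and 1.74 FPKM) and Ccl2 (0.670 and 1.42 FPKM) passed the filter only through csMed1-/- heart, so this share rests partly on the filter. Icam1, an inflammatory adhesion molecule, had 6.79 and 16.7 FPKM (ratio 2.46), and Jam2 had 7.78 and 2.23 FPKM, 3.49-fold lower. Jam3 (8.71 and 4.44 FPKM) and F11r (19.7 and 33.2 FPKM), which encode related junctional adhesion molecules, stayed within 2-fold.

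Angiogenic factors and inhibitors outside the set were described in the same list, which does not separate them, and differed in both directions. Of 15 that passed the filter 3 (20.0%) were lower and 8 (53.3%) higher by more than 2-fold, beside 18.0% and 13.6% of all genes. The median log2 ratio was 1.16, beside -0.07. Of the 8 higher genes, Thbs1 (0.543 and 3.79 FPKM) and Igf1 (0.423 and 1.44 FPKM) passed only through csMed1-/- heart, so this share too rests partly on the filter. Fgf1, an endothelial and myocyte mitogen, had 37.7 FPKM in Med1fl/fl and 5.89 FPKM in csMed1-/- heart, 6.39-fold lower, and the chemokine gene Cxcl12 had 80.4 and 21.1 FPKM, 3.81-fold lower. Adm, the gene of the vasodilator adrenomedullin, had 4.25 and 21.2 FPKM (ratio 4.98), and Angptl4, an inhibitor of lipoprotein lipase, had 10.7 and 101.5 FPKM (ratio 9.45). The study picked Angptl4 and Thbs1, both on this list, for follow-up from these libraries, so their direction is no independent evidence. Of 18 hypoxia response genes 3 (16.7%) were lower and 4 (22.2%) higher, against the same background. Car9, a carbonic anhydrase, had 0.0949 and 5.96 FPKM, and the glucose transporter gene Slc2a1 had 13.5 and 33.0 FPKM (ratio 2.44). Of the 4 higher genes, Car9 and Hif3a (0.504 and 1.14 FPKM) passed only through csMed1-/- heart. Egln1, the gene of the oxygen sensor PHD2, had 138.8 and 37.9 FPKM, Pdk1, a pyruvate dehydrogenase kinase, had 8.60 and 3.76 FPKM, and Ddit4, an inhibitor of mTORC1, had 84.9 and 139.9 FPKM. Vegfa, itself a hypoxia response gene, stayed within 2-fold.

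**Figure D4:**
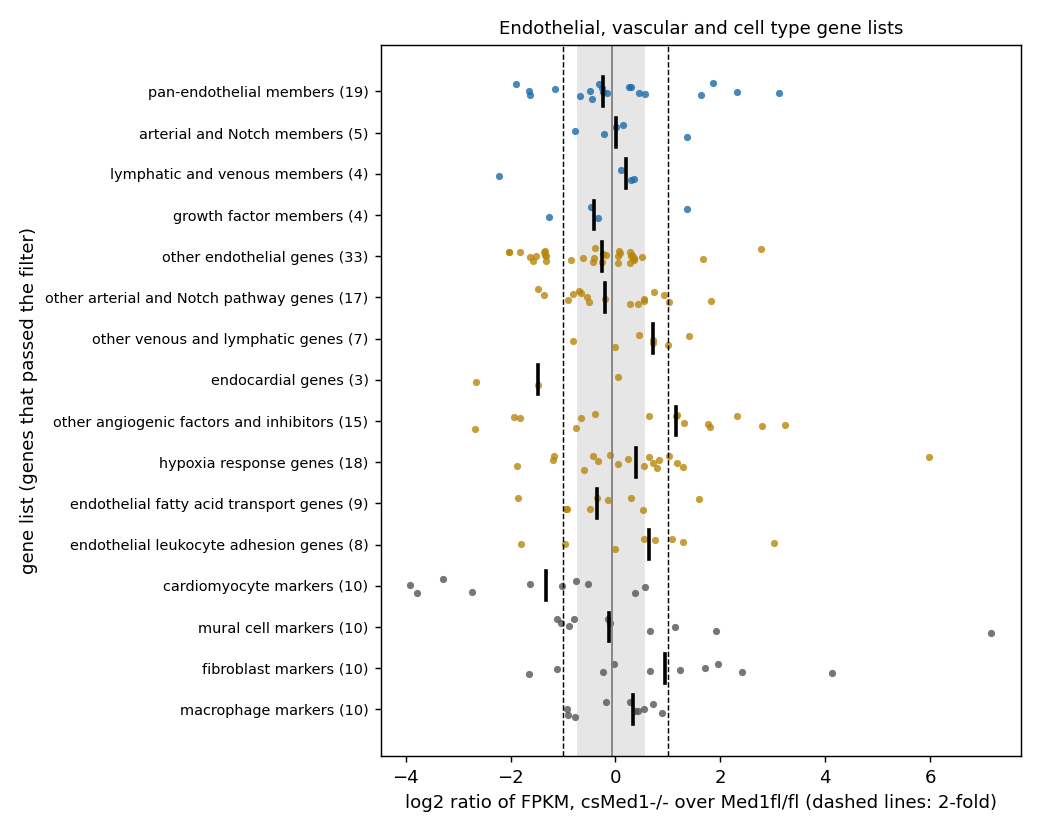
Log2 ratio of csMed1-/- to Med1fl/fl FPKM for each gene of the larger endothelial, vascular and cell type lists (the apelin pair and the lymphocyte, erythroid and mesothelial lists are left out), with the number of genes that passed the filter in brackets. Points are genes, vertical bars are list medians, the shaded band spans the quartiles of all genes and dashed lines mark 2-fold. The pan-endothelial median (-0.24) lies inside the band, the cardiomyocyte median (-1.33) below it and the fibroblast median (0.94) above it.

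Markers of the other cells of the heart moved beside these genes. Of 10 cardiomyocyte markers compared 6 (60.0%) were lower and 0 higher by more than 2-fold, beside 18.0% and 13.6% of all genes. Among the lower was Atp2a2 (3585 and 238 FPKM), and the median log2 ratio of the list was -1.33. The 2 markers with a ratio above 1, Actn2 (1286 and 1892 FPKM) and Nkx2-5 (146 and 188 FPKM), stayed within 2-fold. The study had followed up Atp2a2, Ryr2 and Pln of this list from the same libraries. These 10 markers summed to 56250 FPKM in the control library and to 21894 FPKM in the csMed1-/- library, a ratio of 0.389. With Actc1 and Mb, both listed at 0 in control, the csMed1-/- sum was 32122 FPKM. Of 10 fibroblast markers 2 were lower and 5 higher, against the same 18.0% and 13.6% of all genes, with sums of 583 and 1412 FPKM. Most of that rise came from Col1a1 (129 and 502 FPKM), Col1a2 (95.7 and 314 FPKM) and Mfap5 (38.8 and 205 FPKM). Postn, the gene of periostin, had the highest ratio, with 1.57 and 27.4 FPKM. The lower markers were Dpt (41.3 and 13.1 FPKM) and Lum (8.04 and 3.72 FPKM), and Pdgfra and Dcn stayed within 2-fold. Of 10 mural cell markers 2 were lower and 3 higher, against the same 18.0% and 13.6% of all genes. Their median log2 ratio was -0.13, and 6 had a ratio below 1. More than 2-fold lower were Myh11 (3.68 and 1.79 FPKM) and Mylk (3.91 and 1.80 FPKM). All 10 mural markers summed to 747 and 1164 FPKM. Cnn1, a smooth muscle calponin, had 4.32 and 622 FPKM and accounted for more than the whole difference in that sum. Tagln, the gene of the smooth muscle protein transgelin, had 23.8 and 89.7 FPKM (ratio 3.77), and the pericyte marker Cspg4 had 14.2 and 31.4 FPKM (ratio 2.21). Acta2, the gene of smooth muscle actin, was lower within 2-fold, with 573 and 310.0 FPKM. Of 10 macrophage markers 0 were past 2-fold, beside 31.5% of all genes, with sums over 11 genes of 407 and 467 FPKM. Lymphocyte markers were near 0 in both libraries, with sums of 2.39 and 1.90 FPKM over 7 genes. The 5 mesothelial markers were low, with sums of 1.56 and 5.04 FPKM, and 2 of them passed the filter. Krt19 passed only through csMed1-/- heart, with 0.313 and 2.93 FPKM (ratio 9.34), and Wt1 had 1.19 and 1.86 FPKM. Of the erythroid markers 1 was listed, Alas2, with 35.8 and 82.1 FPKM. The part of a shift in cell composition in the changes of the endothelial genes was not tested.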

How the data were processed

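RNA of 5 hearts per genotype was pooled, enriched for polyadenylated RNA and sequenced as 1 directional library of 50-base single-end reads per genotype. The authors used TopHat (version 2.0.8b, genome mm10) for alignment, and FPKM of annotated genes came from Cufflinks 2.1.1 and cuffdiff. The submitters' processing notes also name STAR 2.4.0h, Bowtie2 and DESeq2, with no role given. The deposited FPKM values were used as they stand, and which library scaling they carry is not stated.

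From these values, rows sharing a symbol were summed, csMed1-/- FPKM was divided by Med1fl/fl FPKM, and genes listed at 0 in neither library whose larger value reached 1 FPKM were compared at a threshold of 2-fold. With 1 library per genotype no test was made. Each list is described by counts and its median beside all genes. Gene positions, transcript length and GC content came from GENCODE M21 (GRCm38), using 1 principal transcript per gene, and promoter windows from RefSeq. The members and gene lists were chosen with earlier results of these data known. Every member is named. Of each other list, up to 4 genes with the largest change among those at 5 FPKM or more are named, and up to 2 with the highest level. For cell type lists, fewer examples by this rule are printed. Some further genes were named after their values were seen. Alternatives were pseudocounts, filters on low values, scalings, a 4-fold threshold, the highest row per symbol and, added later, centring in 10 GC bins. Scripts ran in Python 3.11.15 with numpy 2.4.6, pandas 2.3.3 and matplotlib 3.10.9 and were tested on simulated data.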

Additional observations from a re-analysis of the deposited data

How the results depend on the processing

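Under up to 12 alternatives for single genes, the 6 higher genes stayed more than 2-fold higher and 6 of the 7 lower genes stayed lower. Filters on low values and the highest row per symbol could not change these ratios, since each gene has 1 row. The ratios could therefore move only with the pseudocounts, scalings and centrings. Tek, Erg and Nrp2 did not reach 10 FPKM and had 11 alternatives. Emcn (-1.15) was within 2-fold after centring in GC bins (-0.82) and after centring on the pan-endothelial median (-0.91). The 21 genes within 2-fold stayed there, but the sign of the log2 ratio of Flt1, Dll4 and Notch1 depended on the setting. Dll4 changed sign with scaling to the sum without the 100 highest genes and with centring in GC bins. Flt1 changed with centring in GC bins and on the pan-endothelial median, and Notch1 only with the latter. Sox18 is itself the pan-endothelial median gene and was at 0 after centring on it. Among genes at 10 FPKM or more in either library, 4 of 23 members were lower and 6 higher, which leaves fewer genes to count. With a 4-fold threshold 2 of 34 were lower and 2 higher. Over all genes, the lower count was 3182 of 15930 without a filter on low values and 885 of 5426 at 10 FPKM or more. With a 4-fold threshold it was 539 of 10489. The higher counts in these settings were 2504, 821 and 453. At 10 FPKM or more no lymphatic and venous gene was left, and the pan-endothelial median was 0.04 in place of -0.24. Scaling to the FPKM sum shifted every log2 ratio by 0.12. No paired analysis was possible because each genotype has 1 library. With neither replicates nor read counts, the spread between pools and the counting error of low genes such as Angpt1, Angpt2 and Fli1 cannot be given.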
